A study of Mus musculus with 25 samples.

Results

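Spp1, Cthrc1, Postn, Tnc, Thbs1, Thbs2, Thbs4, Fn1, Sparc and Vcan encode matricellular and provisional matrix proteins, and these 10 genes were taken by symbol. All 10 were found among the 47729 genes of the bulk RNA-seq table, all 10 were among the 15773 genes that passed the filter on low counts, and all 10 were among the 31053 features of the single-cell tables. The material was Lin- lung cells of mice, from which the sort had removed CD45+, CD31+ and CD326+ cells. Bulk RNA-seq held 20 libraries in 5 groups of 4: naive mice, and mice with and without Fas deletion at 3 and 6 weeks after a single intratracheal instillation of bleomycin. Single-cell RNA-seq held 5 libraries, 1 for each of these conditions. The cells of each came from pooled mice.

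Matricellular proteins are secreted into the extracellular matrix, where they bind cell-surface receptors and matrix fibers rather than bear load. The provisional matrix is the early scaffold of an injured tissue, rich in fibronectin and versican, on which fibroblasts move and later lay down collagen. In the fibrotic lung these proteins are made largely by activated fibroblasts, and osteopontin also by macrophages.

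All groups carried the same alleles, a tamoxifen-inducible Cre driven by the Col1a1 promoter and floxed Fas (Col1-CreERT2;Fas fl/fl). Mice given corn oil after bleomycin are called Fas+/+, although their Fas alleles were floxed, and mice given tamoxifen are called Fas-/-. Injections ran through the development of fibrosis, so that deletion and tamoxifen cannot be told apart, and deletion was limited to cells in which the Col1a1 promoter had been active. The age of the mice is not given in the sources used here. The study's methods count individual animals as replicates, while the labels do not tie each bulk library to a mouse.

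Each bulk library held between 11819700 and 25189096 counts. Fas itself, summed over the gene, had a log2 fold change of 0.11 (adjusted p = 0.91) between Fas-/- and Fas+/+ libraries at 3 weeks and of 0.36 (adjusted p = 0.719) at 6 weeks. Since only exon 9 was floxed and the counts do not separate exons, this is a weak check of the labels. Among 8 markers of blood endothelium, 8 were called higher in Fas+/+ and 7 in Fas-/- libraries than in naive ones at 3 weeks. Their summed level was 160 to 422 CPM (counts scaled to the library total) in naive libraries, and it stood highest in Fas+/+ replicate 1 (8030) and Fas-/- replicate 4 (7320) of the 3 week libraries. The other 3 libraries of these groups held 2040 to 2740 and 564 to 961 CPM. The levels of all 10 genes were lowest in these libraries within their groups, and in bulk RNA fewer cells of a type and less RNA per cell cannot be told apart. Macrophages can also express Spp1, and their 8 markers together were at 7.07 to 10.2 CPM in naive libraries and 22.1 to 46.4 CPM at 3 weeks. Their part in the result for Spp1 was not tested. Markers of other cells moved as well. At 3 weeks 6 of 6 lymphatic endothelial markers were called higher than in naive libraries in both genotypes, 7 of 8 alveolar epithelial markers in Fas+/+ and 8 of 8 in Fas-/-, and 6 of 6 and 4 of 6 cycling-cell markers. All 5 erythroid markers were called lower in both genotypes, with a summed level of 2980 to 9590 CPM in naive libraries and 17.1 to 235 CPM in the others. The part of these cells in the comparisons with naive libraries was not tested.

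Fn1 encodes fibronectin and lies on chromosome 1 (71585520 to 71653200, minus strand, GRCm38), Vcan encodes versican (chromosome 13, 89655312 to 89742509, minus strand) and Spp1 encodes osteopontin (chromosome 5, 104435118 to 104441050, plus strand). Tnc, for tenascin-C, lies on chromosome 4 (63959785 to 64047015, minus strand), Postn, for periostin, on chromosome 3 (54361109 to 54391037, plus strand), Cthrc1 on chromosome 15 (39076932 to 39087121, plus strand) and Sparc on chromosome 11 (55394500 to 55423183, minus strand). Of the thrombospondins, Thbs1 lies on chromosome 2 (118111876 to 118127133, plus strand), Thbs2 on chromosome 17 (14665500 to 14694235, minus strand) and Thbs4 on chromosome 13 (92751590 to 92794818, minus strand). Exons of Fn1, Thbs1 and Tnc overlap an annotated gene on the other strand (Apol7d, Gm29233 and 8030451A03Rik), and those of Spp1 overlap Gm42793 on its own strand. The bulk kit keeps strand, but the strand setting of the counting is not given in the sources used here, so reads in these overlaps are uncertain.

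The promoters of 4 members are shown: Spp1, Tnc and Thbs4, which rose at 3 weeks in both genotypes, and Postn, which did not pass the test. They are not all the members that rose. No promoter sequence was available for Cthrc1, Fn1 and Thbs1, and that of Thbs2, which also rose, is not shown. Each sequence holds the 250 bases before an annotated start (RefSeq, GRCm38.p6), 5′ to 3′ on the strand of the gene, with matches to 4 motifs in capitals. The motifs, searched on both strands, were AP-1 with the letters TGANTCA, TEAD with GGAATG, RUNX with TGTGGT and the TATA box with TATAAA.
Spp1, chr5:104434861-104435110, plus strand: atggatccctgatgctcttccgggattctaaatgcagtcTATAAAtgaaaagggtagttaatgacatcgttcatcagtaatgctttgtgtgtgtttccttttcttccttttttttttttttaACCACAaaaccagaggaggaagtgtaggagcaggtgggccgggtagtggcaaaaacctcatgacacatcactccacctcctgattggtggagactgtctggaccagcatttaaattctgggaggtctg
Tnc, chr4:64047016-64047265, minus strand: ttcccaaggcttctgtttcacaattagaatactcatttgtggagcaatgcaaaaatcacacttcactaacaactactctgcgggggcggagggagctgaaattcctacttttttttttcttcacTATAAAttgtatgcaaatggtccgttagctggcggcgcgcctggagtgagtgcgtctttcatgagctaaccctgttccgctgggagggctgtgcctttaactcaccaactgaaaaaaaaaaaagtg
Thbs4, chr13:92794819-92795068, minus strand: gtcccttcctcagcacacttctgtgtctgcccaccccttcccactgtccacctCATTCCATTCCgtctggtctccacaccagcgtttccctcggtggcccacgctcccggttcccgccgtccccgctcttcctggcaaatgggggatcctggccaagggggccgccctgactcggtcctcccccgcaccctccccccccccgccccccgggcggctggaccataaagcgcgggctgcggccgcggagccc
Postn, chr3:54360857-54361106, plus strand: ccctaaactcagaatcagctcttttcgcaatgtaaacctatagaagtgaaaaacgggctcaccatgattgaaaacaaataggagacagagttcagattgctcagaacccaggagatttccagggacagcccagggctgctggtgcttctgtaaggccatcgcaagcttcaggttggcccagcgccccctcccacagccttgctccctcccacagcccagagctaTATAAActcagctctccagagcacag

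In the Spp1 sequence the capitals mark a TATA match 211 bases and a RUNX match on the other strand 128 bases before the start. A TATA match lies 126 bases before the start of Tnc and 26 bases before that of Postn, and 2 overlapping TEAD matches on the other strand lie 197 and 192 bases before the start of Thbs4. No AP-1 match was found in these windows. Matches were of the exact letters at any distance from the start. A TATA match is thus not shown to be a TATA box in use, and variants of the letters were not sought. Spp1, Tnc and Postn each have a further annotated start that is not shown. The windows before those of Spp1 and Postn hold none of the motifs, and the TATA match of Tnc lies 205 bases before its further start. Of 32851 mouse promoters of this length, 6.75% hold the AP-1 letters, 12.6% TEAD, 14% RUNX and 12.4% TATA.

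Fibronectin is the main glycoprotein of the provisional matrix. The level of Fn1 in naive libraries, in the order of replicates 1 to 4, was 5872, 5816, 5915 and 6725 CPM. At 3 weeks it was 5388, 20860, 24930 and 19990 CPM in Fas+/+ libraries and 17980, 21210, 17500 and 8099 CPM in Fas-/- libraries. At 6 weeks it was 6374, 7095, 7543 and 8841 CPM in Fas+/+ libraries and 12430, 9033, 8274 and 10280 CPM in Fas-/- libraries. All 4 Fas-/- libraries lay above every naive library at either week, while Fas+/+ replicate 1 of 3 weeks lay below the naive range. Fn1 rose at 3 weeks, by 1.55 ± 0.343 on the log2 scale (SE, n = 4 against 4, edgeR quasi-likelihood test, adjusted p = 0.00181) in Fas+/+ and by 1.41 ± 0.342 (adjusted p = 0.00498) in Fas-/- libraries. This SE, like those of the other log2 fold changes, comes from a fit of all 20 libraries. It is not the spread of the compared libraries alone.

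Versican, a large proteoglycan that binds hyaluronan, was at 98.4 to 143 CPM in naive libraries. The level of Vcan was 70.8, 222, 280 and 240 CPM in the Fas+/+ libraries and 227, 272, 208 and 90.8 CPM in the Fas-/- libraries of 3 weeks. In each genotype 3 libraries lay above the naive range and 1 below it. Its log2 fold change over naive, 0.64 ± 0.328 (adjusted p = 0.126) and 0.62 ± 0.327 (adjusted p = 0.159), did not pass the test.

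Osteopontin binds integrins and CD44. The level of Spp1 in naive libraries was 61.6, 45.5, 81.1 and 41.1 CPM. At 3 weeks it was 146, 1779, 2999 and 2180 CPM in Fas+/+ libraries and 2033, 2697, 1844 and 273 CPM in Fas-/- libraries. At 6 weeks it was 183, 146, 117 and 193 CPM in Fas+/+ libraries and 207, 133, 153 and 135 CPM in Fas-/- libraries. No library after bleomycin fell into the naive range at either week, and the 6 week libraries of both genotypes overlapped each other. Spp1 rose at 3 weeks by 4.95 ± 0.723 (adjusted p = 5.8e-05) in Fas+/+ and by 4.90 ± 0.721 (adjusted p = 0.00012) in Fas-/- libraries. At 6 weeks its log2 fold changes of 1.48 ± 0.627 (adjusted p = 0.199) and 1.45 ± 0.627 (adjusted p = 0.189) did not pass the test.

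Tenascin-C is a glycoprotein of developing and injured tissue that binds fibronectin. The level of Tnc was 128, 173, 127 and 181 CPM in naive libraries. At 3 weeks it was 186, 2549, 3070 and 2326 CPM in Fas+/+ libraries and 1820, 2419, 1783 and 488 CPM in Fas-/- libraries. At 6 weeks it was 208, 280, 340 and 459 CPM in Fas+/+ libraries and 969, 620.5, 507 and 656 CPM in Fas-/- libraries. Every library after bleomycin lay above every naive library, and at 6 weeks every Fas-/- library lay above every Fas+/+ library. Tnc rose at 3 weeks by 3.74 ± 0.611 (adjusted p = 0.00016) in Fas+/+ and by 3.42 ± 0.603 (adjusted p = 0.000501) in Fas-/- libraries.

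Cthrc1, a secreted protein that marks collagen-producing fibroblasts of fibrotic lung, was low in naive libraries, at 0.388, 0.519, 0.286 and 0.736 CPM. At 3 weeks it was 5.84, 65.1, 64.8 and 46.2 CPM in Fas+/+ libraries and 32.5, 36.8, 24.4 and 12.6 CPM in Fas-/- libraries. At 6 weeks it was 1.57, 3.57, 1.98 and 8.16 CPM in Fas+/+ libraries and 18.1, 15.5, 7.85 and 11.4 CPM in Fas-/- libraries. No library after bleomycin fell into the naive range. Cthrc1 rose by 6.53 ± 0.762 (adjusted p = 7.45e-06) and 5.76 ± 0.75 (adjusted p = 4.29e-05) at 3 weeks, and by 2.95 ± 0.756 (adjusted p = 0.0283) and 4.75 ± 0.741 (adjusted p = 0.00122) at 6 weeks, in Fas+/+ and Fas-/- libraries. The 6 week call in Fas+/+ libraries held in 15 of 20 fits that left out 1 library, and it was lost without naive replicate 1, 2 or 3 or without Fas+/+ 6 week replicate 2 or 4, the last giving the highest adjusted p (0.11).

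Periostin, which binds integrins and takes part in collagen assembly, did not follow the others. The level of Postn in naive libraries was 789, 788, 613 and 573 CPM. At 3 weeks it was 382, 827, 722 and 693 CPM in Fas+/+ libraries and 691, 762.5, 651 and 242 CPM in Fas-/- libraries. The 8 libraries of 6 weeks held 412 to 688 CPM. All groups overlapped, and the log2 fold changes over naive ran from -0.29 to -0.07 with adjusted p of 0.543 to 0.85. Over the 20 libraries the Pearson correlation of Postn in log2 CPM with the other members was -0.0943 for Thbs4, 0.0291 for Cthrc1 and at most 0.545, for Vcan. In the same libraries 7 of 8 pericyte markers were called lower in Fas+/+ mice and 6 of 8 in Fas-/- mice at 3 weeks than in naive mice. Their summed level was 2970 to 4070 CPM in naive, 1920 to 2340 CPM in Fas+/+ and 1290 to 2550 CPM in Fas-/- libraries, and the part of this in the Postn level was not tested. Markers of other classes were called lower too. In Fas+/+ and Fas-/- mice these were 7 and 6 of 8 mesothelial, 5 and 6 of 8 vascular smooth muscle and 5 and 4 of 7 Hhip myofibroblast markers. Fibroblast markers were among them, 8 and 5 of 10 alveolar lipofibroblast (0 and 1 higher) and 6 and 6 of 10 adventitial Col14a1 fibroblast markers (2 and 1 higher). By contrast, 9 and 8 of 10 profibrotic and 6 and 6 of 7 inflammatory fibroblast markers were called higher. Over all tested genes 41.3% and 32% were called in either direction, and 22.1% and 17.2% were called higher.

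Sparc, a collagen-binding glycoprotein, was at 2092, 3886, 2761 and 4112 CPM in naive libraries. At 3 weeks it was 2310, 5668, 5911 and 5174 CPM in Fas+/+ libraries and 5069, 5688, 4684 and 3132 CPM in Fas-/- libraries. The groups overlapped, and the log2 fold changes over naive of 0.57 ± 0.26 (adjusted p = 0.0888) and 0.53 ± 0.26 (adjusted p = 0.127) did not pass the test. At 6 weeks Sparc was at 2341 to 2754 CPM in Fas+/+ and 2886 to 4405 CPM in Fas-/- libraries, and Vcan at 91.0 to 130 CPM and 75.1 to 98.6 CPM. Both Sparc and Vcan passed the test at 3 weeks when the 2 libraries with the highest endothelial markers were left out, an alternative chosen after seeing the data (adjusted p = 0.00156 and 9.22e-05 in Fas+/+, 0.00783 and 0.000354 in Fas-/-). These libraries also held the lowest Sparc and Vcan levels of their groups. Leaving them out had to raise the 3 week means, so these calls are no separate evidence of a rise.

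The thrombospondins bind many matrix and cell-surface partners, and Thbs1 is known to activate latent TGF-β. The level of Thbs1 was 1918 to 2907 CPM in naive libraries, 1743, 5846, 7119 and 8680 CPM in Fas+/+ and 6724, 7595, 6152 and 4872 CPM in Fas-/- libraries of 3 weeks. Thbs2 was at 41.6 to 89.7 CPM in naive libraries, 50, 356, 330 and 260.5 CPM in Fas+/+ and 208, 255, 194 and 70.1 CPM in Fas-/- libraries of 3 weeks. Thbs4 was at 0.904, 2.00, 1.43 and 38.3 CPM in naive libraries, 32.8, 242, 220 and 265 CPM in Fas+/+ and 252, 270, 214 and 139 CPM in Fas-/- libraries of 3 weeks. Naive replicate 4 thus stood apart for Thbs4, within the range of Fas+/+ mice. At 6 weeks, in Fas+/+ and Fas-/- libraries, Thbs1 was at 2143 to 3459 and 2528 to 3901 CPM, Thbs2 at 43.0 to 97.9 and 65.6 to 146 CPM, and Thbs4 at 18.7 to 64.0 and 51.9 to 72.7 CPM.

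All 3 thrombospondins rose at 3 weeks. Thbs1 rose by 1.2 ± 0.324 (adjusted p = 0.00681) in Fas+/+ and 1.31 ± 0.325 (adjusted p = 0.00565) in Fas-/- libraries. Thbs2 rose by 1.95 ± 0.482 (adjusted p = 0.00382) and 1.5 ± 0.476 (adjusted p = 0.0232). Thbs4 rose by 4.15 ± 0.941 (adjusted p = 0.00213) and 4.36 ± 0.949 (adjusted p = 0.00251), and by 7.03 and 7.23 on the log2 scale without naive replicate 4. The Thbs2 call in Fas-/- libraries held in 17 of 20 such fits, with its highest adjusted p (0.0757) without naive replicate 1.

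**Figure D1:**
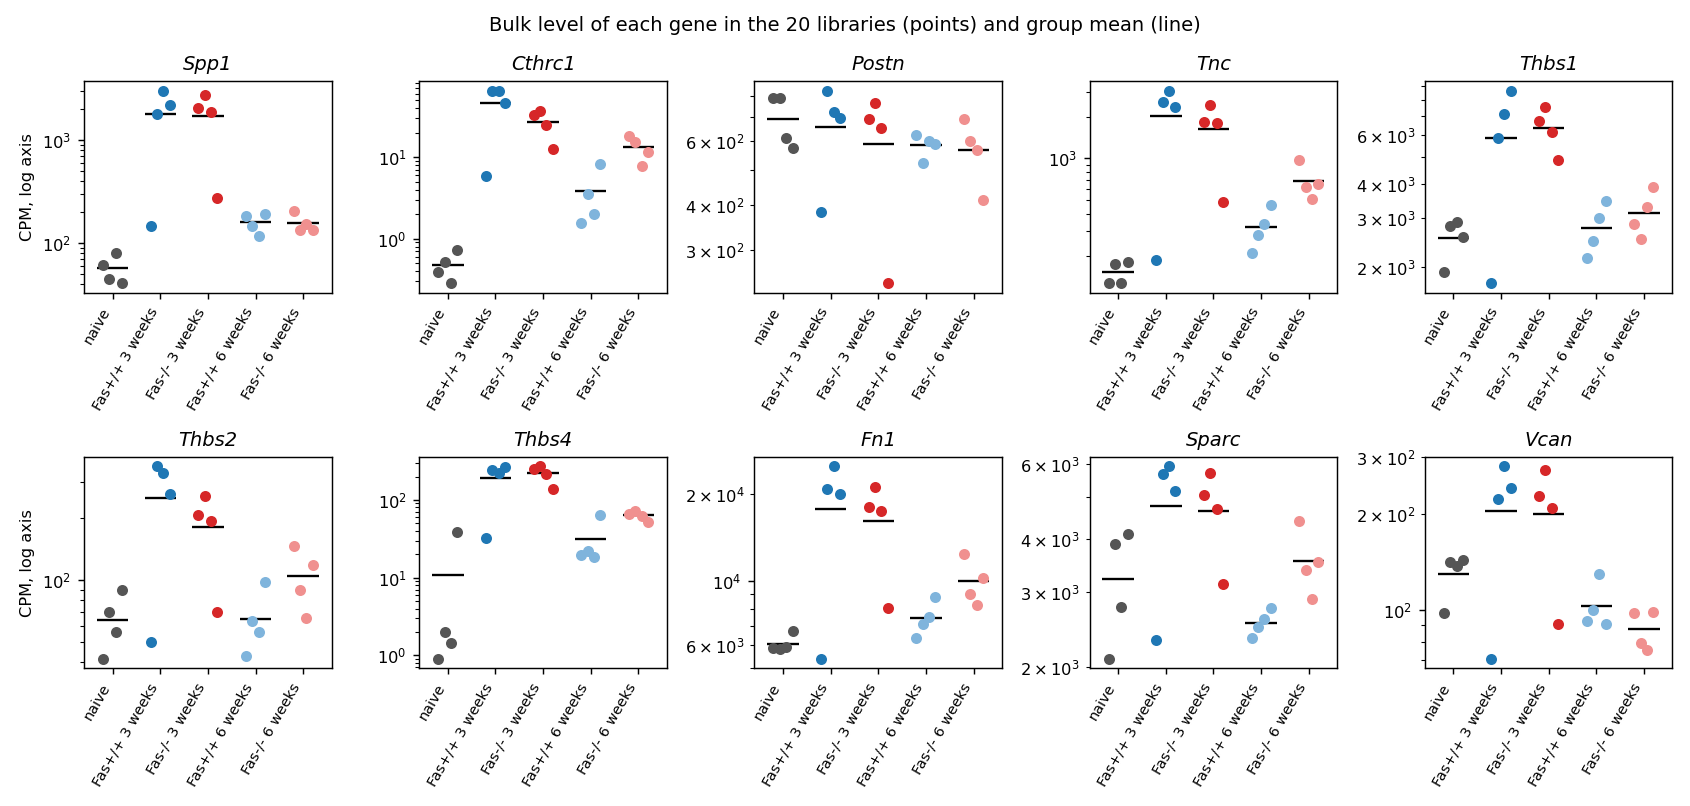
Bulk level of each of the 10 genes in CPM (log axis) in the 20 libraries, with points for the 4 libraries of each group and a line for the group mean. Spp1, Tnc, Cthrc1 and Thbs4 sit highest at 3 weeks, Postn overlaps in all 5 groups, and the lowest point of the Fas+/+ 3 week group is replicate 1 for each gene.

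As the plot of levels by library shows, 7 of the 10 members rose at 3 weeks in Fas+/+ mice and none fell, whereas 41.3% of all tested genes were called in either direction and 22.1% rose. In Fas-/- mice the same 7 members rose, against 32% of genes called and 17.2% that rose. Both comparisons share the naive libraries. The members were chosen with earlier results of these data known. The shares over all genes, here and below, are therefore no test of an excess among the members. The median log2 fold change of the members was 1.75 in Fas+/+ and 1.46 in Fas-/- libraries, where that of all tested genes was 0.0115 and 0.0196.

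At 6 weeks Cthrc1 alone was called over naive mice in Fas+/+ libraries (1 of 10 members, against 5.31% of genes called and 3.57% that rose). The Fas+/+ count was 2 without naive replicate 4 or Fas+/+ 3 week replicate 1. Cthrc1 and Tnc were called in Fas-/- libraries (2 of 10, against 6.48% and 3.66%). This count was 4 without Fas+/+ 3 week replicate 1, and 1 without naive replicate 1, 2 or 3 or Fas-/- 6 week replicate 1, 2 or 4. Tnc rose there by 2.18 ± 0.573 (adjusted p = 0.0303), a call that held in 13 of 20 fits that left out 1 library, with its highest adjusted p (0.0891) without naive replicate 3. In Fas+/+ libraries Tnc had a log2 fold change of 1.08 ± 0.555 (adjusted p = 0.297). The median log2 fold change of the members was 0.208 in Fas+/+ and 0.711 in Fas-/- libraries. In Fas-/- libraries Fn1 had a log2 fold change of 0.72 ± 0.337 (adjusted p = 0.232). Thbs4, whose level stood apart in naive replicate 4, had a log2 fold change of 1.54 (adjusted p = 0.344) in Fas+/+ and of 2.56 ± 0.885 (adjusted p = 0.0978) in Fas-/- libraries. Without that library it was called in both genotypes, at 4.42 (adjusted p = 0.00157) and 5.44 (adjusted p = 0.000644).

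Per kilobase of exon, Sparc (848 ± 251 CPM per kb, SD, n = 4), Fn1 (520 ± 36.8) and Thbs1 (420 ± 72.9) were the most abundant members in naive libraries, and Cthrc1 (0.303 ± 0.122) the least. At 3 weeks in Fas+/+ libraries Fn1 stood at 1520 ± 731, Sparc at 1260 ± 440, Spp1 at 1080 ± 728 and Thbs1 at 963 ± 489 CPM per kb. These SDs are between libraries and do not measure differences between genes of the same libraries, which were not tested. By 6 weeks Spp1 was at 97.0 ± 21.2 CPM per kb in Fas+/+ and 95.2 ± 20.8 in Fas-/- libraries. Cthrc1, Vcan, Thbs2 and Thbs4 stayed at or below 66.5 CPM per kb in every group mean. Group means of Postn ran from 65.1 to 79.4 CPM per kb, and Spp1 was at 34.8 and Tnc at 19.6 in naive libraries.

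Between 3 and 6 weeks all 10 members had a lower mean level in both genotypes. In Fas+/+ mice 9 of 10 fell by the test, against 22.9% of genes called and 10.9% that fell, and the members' median log2 fold change was -1.59. The largest changes were those of Cthrc1 (-3.58 ± 0.618, adjusted p = 0.000736), Spp1 (-3.47 ± 0.674, adjusted p = 0.00158) and Tnc (-2.66 ± 0.583, adjusted p = 0.00352). Thbs4 fell by 2.61, Thbs2 by 1.94, Fn1 by 1.25, Thbs1 by 1.08, Vcan by 0.97 and Sparc by 0.91 on the log2 scale, with adjusted p from 0.00801 to 0.0411. Postn had a log2 fold change of -0.17 ± 0.275 (adjusted p = 0.692).

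Several of these calls rested on single libraries. Without Fas+/+ 3 week replicate 3 the count of members that fell was 4, and without Fas+/+ 6 week replicate 1 it was 5. The weakest calls were those of Vcan, which held in 10 of 20 fits with 1 library left out, and Thbs4, which held in 14. For all 10 members the weeks overlapped in Fas+/+ mice, where 23.5% of all tested genes did not overlap, and replicate 1 of 3 weeks lay within or below the range of 6 weeks for each of them.

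In Fas-/- mice 2 of 10 members fell between 3 and 6 weeks, against 9.02% of genes called and 4.54% that fell. Spp1 fell by 3.45 ± 0.673 (adjusted p = 0.00592) and Vcan by 1.18 ± 0.331 (adjusted p = 0.0344) on the log2 scale. Tnc (-1.24 ± 0.556, adjusted p = 0.169), Cthrc1 (-1.01 ± 0.557, adjusted p = 0.267) and Thbs1 (-1.01 ± 0.322, adjusted p = 0.057) did not pass the test. The count rose to 5 without Fas+/+ 3 week replicate 1, a library of neither group, and was 1 without Fas-/- 3 week replicate 1, 2 or 3 or without any 1 of the 4 Fas-/- libraries of 6 weeks. The call for Vcan held in 13 of 20 such fits.

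Whether the change over time differed between genotypes was tested by the interaction of genotype and time. None of the 10 members passed (0.00634% of all genes did, with 1210 of 15773 at an unadjusted p of 0.05 or less). Cthrc1 had the largest interaction, 2.57 ± 0.807 on the log2 scale (adjusted p = 0.342), followed by Tnc at 1.42 ± 0.779 (adjusted p = 0.717). A fall called in Fas+/+ and not in Fas-/- mice is therefore not shown to differ between them. DESeq2 also gave 0 members, both here and between genotypes within each week. Without Fas+/+ 3 week replicate 1 the interaction of Cthrc1 was called (adjusted p = 0.0338), so that 1 member passed.

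**Figure D2:**
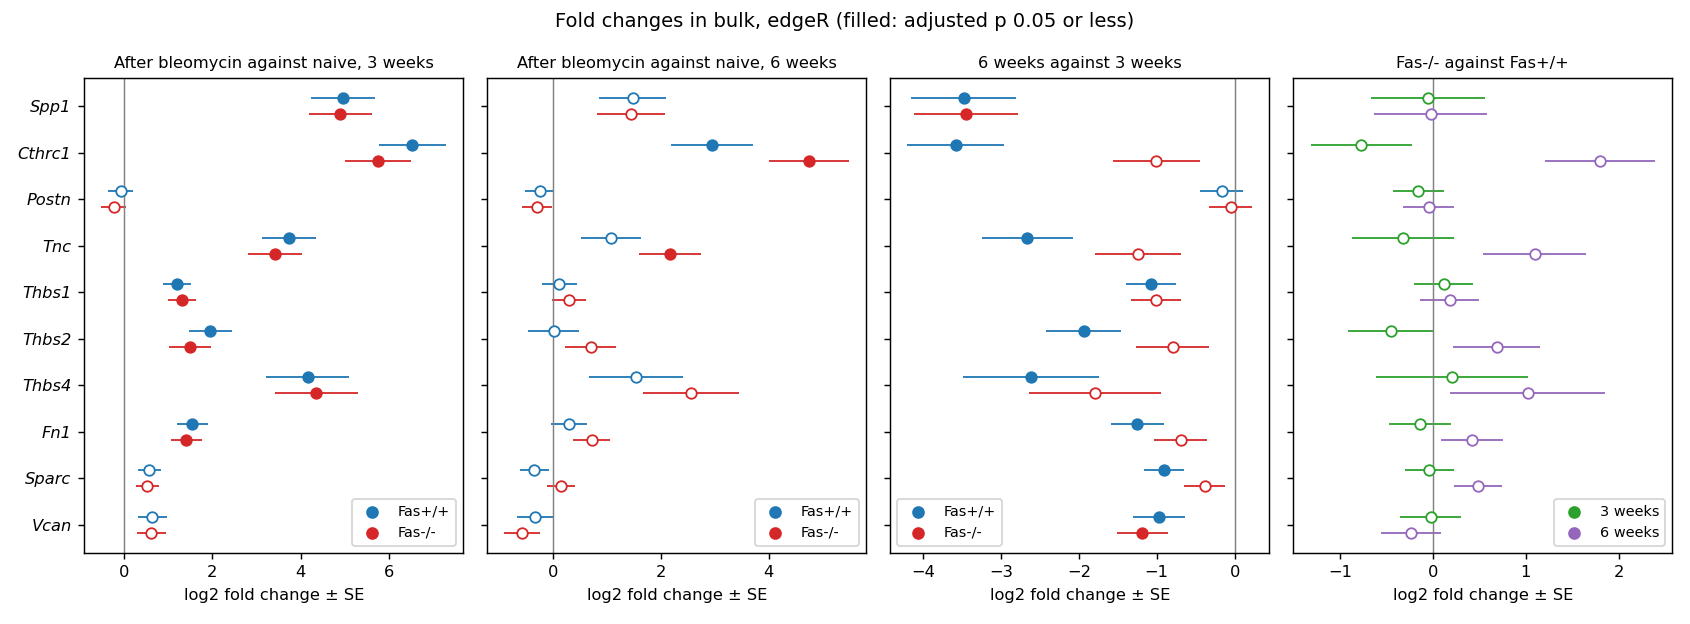
Log2 fold change ± SE of the 10 genes in bulk between groups of 4 libraries, with filled points for an adjusted p of 0.05 or less. The SEs come from the edgeR fit of all 20 libraries, in which the groups share an estimate of the spread. In the comparisons with naive mice at 3 weeks 7 points are filled in each genotype, between 3 and 6 weeks 9 are filled in Fas+/+ and 2 in Fas-/- mice, and none is filled between genotypes.

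The genotypes were also compared directly within each week, as the plot of fold changes shows. At 3 weeks none of the 10 members was called (0.171% of genes were, and 1359 genes had an unadjusted p of 0.05 or less). All 10 pairs of groups overlapped, where 3.92% of all tested genes did not overlap, and the median log2 fold change of Fas-/- over Fas+/+ libraries was -0.0942. The largest difference was that of Cthrc1, -0.77 ± 0.548 (adjusted p = 0.753). For Spp1 the difference was -0.05 ± 0.611 and for Tnc -0.32 ± 0.548.

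At 6 weeks 7 of 10 members had a higher mean in Fas-/- libraries, whereas at 3 weeks 2 had a higher and 8 a lower mean. Many members vary together, so these counts are not separate observations. The median over the members at 6 weeks was 0.453 on the log2 scale, where that of all tested genes was -0.00114. No member was called at 6 weeks (0.0507% of genes were, and 1273 genes had an unadjusted p of 0.05 or less). Cthrc1 was at 13.2 ± 4.52 CPM (SD, n = 4) in Fas-/- and 3.82 ± 3.02 CPM in Fas+/+ libraries, a log2 fold change of 1.80 ± 0.594 (edgeR adjusted p = 0.326). Tnc was at 688 ± 198 and 322 ± 106 CPM, a log2 fold change of 1.10 ± 0.555 (edgeR adjusted p = 0.669). Sparc was at 3550 ± 633 and 2540 ± 175 CPM, a log2 fold change of 0.48 ± 0.26 (edgeR adjusted p = 0.713).

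The 4 Fas-/- libraries lay above all 4 Fas+/+ libraries for Tnc and Sparc, and no member lay wholly below. Over all tested genes the genotypes did not overlap in 6.81%, with Fas-/- libraries higher in 3.47%. An exact permutation test (two-sided, on the difference in mean log2 CPM) gave 0.0286 for each, the smallest p that 4 against 4 libraries allow, and 0.0571 for Cthrc1, none of them adjusted for the number of genes. Spp1 did not separate the genotypes at 6 weeks (160 ± 35.0 CPM in Fas+/+ and 157 ± 34.3 CPM in Fas-/- libraries). When the 2 endothelial-high libraries of 3 weeks were left out, an alternative chosen after seeing the data, Cthrc1 (adjusted p = 0.0316) and Tnc (adjusted p = 0.031) were called at 6 weeks. Neither of those libraries is of 6 weeks, but all groups share an estimate of the spread. Without them the SE of Cthrc1 was 0.38, not 0.594, at a log2 fold change of 1.81. That of Tnc was 0.224, not 0.555, at a log2 fold change of 1.10. The other settings kept every 6 week library, and that with only the groups compared left out the rest. Over these settings the adjusted p of Cthrc1 ran from 0.184 to 0.427 and that of Tnc from 0.179 to 0.847.

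The other genes of these families did not move as one. Of 23 other matricellular genes 21 were tested. At 3 weeks in Fas+/+ mice 5 rose and 9 fell over naive mice (median log2 fold change -0.323), and in Fas-/- mice 3 rose and 8 fell. In Fas+/+ mice 41.3% of all tested genes were called (22.1% rose), and in Fas-/- mice 32% (17.2% rose). The same shares apply to the 3 week counts of the lists below. Tnn, a tenascin, rose from 0.933 ± 0.3 CPM (SD, n = 4) in naive to 19.6 ± 12.7 CPM in Fas+/+ libraries (log2 fold change 4.38 ± 0.657, adjusted p = 7.4e-05). Tnxb, another tenascin (-1.2 ± 0.15, adjusted p = 1.43e-05), and Spon2, an F-spondin relative (-1.3 ± 0.148, adjusted p = 5.97e-06), fell. Tnn was also called in Fas-/- mice at 6 weeks (log2 fold change 3.02 ± 0.642, adjusted p = 0.00915), where it stood at 7.61 ± 2.12 CPM against 2.21 ± 0.747 CPM in Fas+/+ mice, a genotype difference that was not called.

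Of 20 provisional and hyaluronan matrix genes 16 were tested, of which 7 rose and 2 fell in Fas+/+ and 5 rose and 2 fell in Fas-/- mice at 3 weeks. Has2, a hyaluronan synthase, rose from 5.63 ± 1.00 to 45.3 ± 30.7 CPM in Fas+/+ libraries (log2 fold change 3.00 ± 0.595, adjusted p = 0.000785) and was back at 5.80 ± 0.473 CPM at 6 weeks. Plat, the tissue plasminogen activator, rose in both genotypes at 3 weeks (0.93 ± 0.107 and 0.95 ± 0.107, adjusted p = 6.55e-06 and 1.42e-05).

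Among 20 receptor genes, all tested, 8 rose and 5 fell in Fas+/+ and 7 rose and 3 fell in Fas-/- mice at 3 weeks. Itga5, a subunit of the fibronectin receptor, was at 99.1 ± 22.1 CPM in naive, 342 ± 116 CPM in Fas+/+ and 289 ± 57.5 CPM in Fas-/- libraries of 3 weeks. It rose by 1.54 ± 0.252 in Fas-/- mice at 3 weeks (adjusted p = 0.000285) and fell from 3 to 6 weeks in both genotypes (-1.51 ± 0.251 and -1.14 ± 0.249, adjusted p = 0.000574 and 0.0107). Itga8, whose integrin binds osteopontin, moved the other way, lower at 3 weeks (-1.34 ± 0.157, adjusted p = 7.5e-06, in Fas+/+) and higher at 6 than at 3 weeks (1.04 ± 0.156, adjusted p = 0.000272). Of 7 ADAMTS proteases that cleave versican, Adamts4 rose at 3 weeks in both genotypes (2.89 ± 0.511 in Fas+/+ and 2.56 ± 0.505 in Fas-/-, adjusted p = 0.000315 and 0.00121), while 4 of 7 fell in Fas+/+ and 2 of 7 in Fas-/- mice. No gene of these 4 lists was called between genotypes or in the interaction. Over all tested genes 0.171% were called between genotypes at 3 weeks, 0.0507% at 6 weeks and 0.00634% in the interaction. The absence of calls thus says little about these lists.

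For each member the 3 genes most like it over the 20 bulk libraries were sought by Pearson correlation of log2 CPM, a description across libraries that share groups and depth. Cthrc1 was most like Kif26b (0.988), Frzb (0.984) and Scube1 (0.983), and Tnc most like Runx1 (0.987). For Sparc these were Col1a1 (0.979) and Col3a1 (0.973), for Fn1 Serpine2 (0.979), for Thbs2 Bmp1 (0.983) and for Spp1 Slc20a1 (0.977). Postn was most like Cspg4 (0.962) and Pdgfrb (0.93), neither of which was among the nearest genes of another member.

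The single-cell libraries require a caution before their values. All 10 members were lower at 6 than at 3 weeks in bulk, in both genotypes, and all 10 were higher in the single-cell library labelled 6 weeks than in the library labelled 3 weeks, in both genotypes. The median log2 ratio of the members, labelled 6 over labelled 3 weeks, was 1.45 in Fas+/+ and 1.40 in Fas-/- single cells, against -1.59 and -1.01 in bulk. The same held beyond the members. Of 1689 genes called lower at 6 weeks in bulk Fas+/+ mice and present in single cells, 1653 were higher in the library labelled 6 weeks, and of 1843 called higher 1738 were lower. In Fas-/- mice these counts were 662 of 698 and 634 of 695. The labels of week in the 2 kinds of data thus go against each other, with 1 single-cell library per condition, and no direction over time is drawn from single cells.

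**Figure D3:**
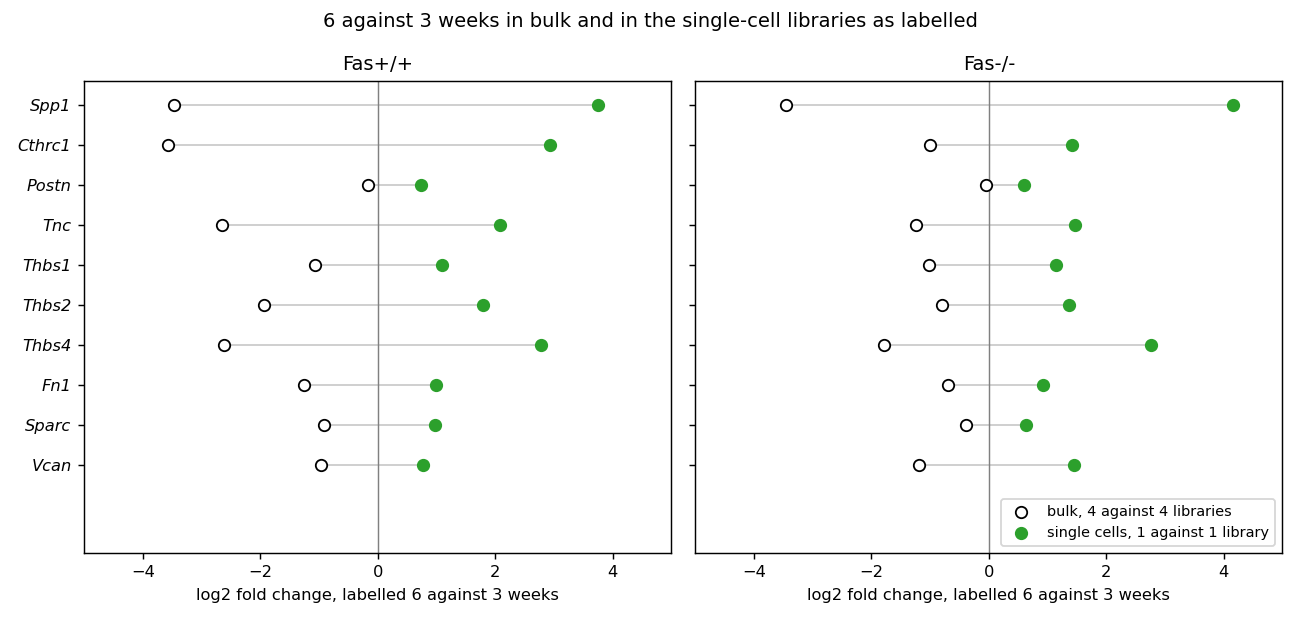
Log2 fold change of each gene between the weeks as labelled, in bulk (open points, 4 against 4 libraries) and in single cells (filled points, 1 against 1 library, log2 of CPM plus 1), for Fas+/+ and Fas-/- mice. All 10 open points lie below 0 and all 10 filled points above 0 in each genotype.

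As the plot of the 2 kinds of data shows, the members with the largest falls in bulk Fas+/+ mice, Cthrc1 and Spp1, had large opposite ratios in single cells (2.94 and 3.75). Barcodes were also shared between libraries. Of 13900 barcodes 1696 (12.2%) occurred in more than 1 library, among them 378 of 766 (49.3%) in the naive library and 5.69% to 14.3% in the others. Leaving out the copy with fewer UMIs of each (1007 of the 12059 cells kept) moved 14 of 570 levels beyond their counting interval. The values that follow are from all kept cells.

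Cells were grouped by clustering without the members. A cluster was named from fixed markers that do not include the members. The groups that matter here are profibrotic fibroblast-like, pericyte-like, Hhip airway and ductal myofibroblast-like, alveolar lipofibroblast-like, adventitial Col14a1 fibroblast-like and inflammatory fibroblast-like cells. In the profibrotic fibroblast-like cells (620 cells) 6 of 10 profibrotic markers were raised, and only Col8a1 of them was among the 10 leading genes. A further 290 cells, cluster 16, were left unnamed, with 6 of 10 profibrotic and 6 of 6 cycling-cell markers raised and Timp1, Il11 and Grem1 among the leading genes. Blood endothelial-like cells are cluster 19 only (240 cells, 7 of 8 markers raised). Clusters 2 (1177 cells) and 10 (434 cells) were left unnamed, although 8 of 8 blood endothelial markers were raised in each. Levels are UMI counts of a gene scaled to the total UMIs of the cells in question (CPM), with 95% exact Poisson intervals that cover counting error only, and no test was possible with 1 library per condition.

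Cthrc1 and Thbs4 were concentrated in the profibrotic fibroblast-like cells, of which the naive library held none at the resolution used. These cells gave 75.7%, 74.4%, 64.4% and 72.1% of all Cthrc1 UMIs in the libraries labelled Fas+/+ 3 weeks, Fas-/- 3 weeks, Fas+/+ 6 weeks and Fas-/- 6 weeks, while they held 5.13%, 8.88%, 12.2% and 12.7% of all UMIs. Their Cthrc1 level in the same order was 215 (191 to 241), 343 (314 to 374), 624 (601 to 648) and 628 (604 to 652) CPM. For Thbs4 they gave 85.6%, 51.8%, 87.7% and 83.9% of UMIs, and in the library labelled Fas-/- 3 weeks its level was higher in cluster 16 (251 CPM) than in these cells (87.1 CPM). Pericyte-like cells had at most 4.16 CPM of Cthrc1 and 2.20 of Thbs4. Thbs4 and Cthrc1 were also the leading genes of this cluster, although neither was used to form it.

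Per cell, Cthrc1 was seen in 30.6% (95% Clopper-Pearson interval 21.7 to 40.7), 41.2% (33.6 to 49.1), 69.4% (61.6 to 76.5) and 59.5% (52.3 to 66.4) of the profibrotic fibroblast-like cells of these libraries. In alveolar epithelial-like cells, which should lack it, the share was 1.3%, 1.89% and 0% in the libraries with at least 20 such cells. Median depth was 8382 to 26700 UMIs in the former and 2209 to 7911 in the latter. After every cell was thinned to 3000 UMIs the shares in profibrotic fibroblast-like cells were 22.9%, 26.3%, 45.5% and 36.4%.

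Spp1 showed a different pattern, with a largest source that differed between libraries. In the naive library pericyte-like cells gave 84.5% of its UMIs at 2480 (2320 to 2660) CPM, while alveolar lipofibroblast-like cells were at 1.87. In the library labelled Fas+/+ 3 weeks pericyte-like cells gave 72.8% of Spp1 UMIs at 5970 CPM. In the other 3 libraries after bleomycin cluster 16 gave most of them, 77.1% (labelled Fas-/- 3 weeks), 56.0% (labelled Fas+/+ 6 weeks) and 84.3% (labelled Fas-/- 6 weeks).

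The level of Spp1 in cluster 16 was 3520, 15400, 32400 and 55600 CPM in the libraries labelled Fas+/+ 3 weeks, Fas-/- 3 weeks, Fas+/+ 6 weeks and Fas-/- 6 weeks, below that of pericyte-like cells in the first. Without the copies of shared barcodes the first 2 were 3330 and 14800. Only 24 cells of cluster 16 came from the library labelled Fas+/+ 3 weeks, and the 63 from that labelled Fas-/- 3 weeks had a median of 740 UMIs, against 17680 to 35710 in the other 3 libraries. In the libraries labelled 6 weeks profibrotic fibroblast-like cells also held Spp1, at 8730 and 6850 CPM, against 231 and 193 in those labelled 3 weeks. The split between these cells and cluster 16 depends on the clustering. At a resolution of 0.4 a single profibrotic fibroblast-like cluster of 902 cells had Spp1 as its leading gene, with 10 cells in the naive library and 117, 225, 240 and 310 in the others. Its level of Spp1 was 1020, 3310, 17100 and 30500 CPM.

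Lower levels of Spp1 in other classes are set beside those of alveolar epithelial-like and erythroid-like cells, in which absence of the gene is not established. In the libraries labelled 6 weeks alveolar epithelial-like cells held 76.9 and 179 CPM, with a UMI in 45.3% and 49.1% of cells. Levels of 105 and 134 in alveolar lipofibroblast-like cells and of 115 and 150 in blood endothelial-like cells lay in the same range. Erythroid-like cells held more, 1480 and 2570 CPM (1290 and 2260 without the copies of shared barcodes), at medians of 1387 and 1412 UMIs. In that cluster 8 of 8 hematopoietic markers were also raised, and Igkc, Jchain and Lyz2 were among the leading genes. It is therefore a mixed class and no background level for Spp1. Inflammatory fibroblast-like cells held 3130 and 973 in these libraries, above the erythroid-like cells in the library labelled Fas+/+ 6 weeks and below them in that labelled Fas-/- 6 weeks.

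The highest level of Postn was in pericyte-like cells. They gave 80.5% of its UMIs in the naive library and 68.6%, 60.3%, 30% and 41.4% in the libraries labelled Fas+/+ 3 weeks, Fas-/- 3 weeks, Fas+/+ 6 weeks and Fas-/- 6 weeks. Their own level of Postn was similar in all 5 libraries, 3250 to 4380 CPM, with a UMI in 94.1% to 96.7% of cells. Vascular smooth muscle-like cells were next among the classes present in naive mice, at 412 to 904. Profibrotic fibroblast-like cells held 297, 232, 956 and 483 CPM in the 4 libraries after bleomycin, and gave more Postn UMIs (38%) than pericyte-like cells in the library labelled Fas+/+ 6 weeks.

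Tnc was spread over several fibroblast classes. In the naive library alveolar lipofibroblast-like cells gave 44.4% of its UMIs at 61.6 CPM. After bleomycin the highest levels were in cluster 16, at 460, 510.0, 1460 and 1020 CPM, followed by profibrotic fibroblast-like cells at 296, 406, 677 and 705. Adventitial Col14a1 fibroblast-like cells, by contrast, held 2.66 to 21.7 in every library, and pericyte-like cells 18.2 to 97.7.

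Thbs1 and Thbs2 were high in Hhip airway and ductal myofibroblast-like cells before injury. There Thbs1 was at 2110 CPM in the naive library and 1910 to 2980 in the others, and pericyte-like cells were at 30.9 to 373. Thbs2 was at 125 in the naive library, where these cells held 5.85% of all UMIs and 58.6% of those of Thbs2. In the profibrotic fibroblast-like cells Thbs2 was at 39.2, 87.1, 241 and 142, and alveolar lipofibroblast-like cells held 0 to 1.63 in every library. The class with the largest share of UMIs in the library labelled Fas-/- 6 weeks was cluster 16 for Thbs2 (36.0%) and profibrotic fibroblast-like cells for Thbs4 (83.9%).

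Fn1 came mainly from alveolar lipofibroblast-like cells in the naive library (54.9% of its UMIs at 1610 CPM) and was at 24.4 to 242 in Hhip airway and ductal myofibroblast-like cells of the 5 libraries. In the libraries labelled 6 weeks it was at 5440 and 5380 in profibrotic fibroblast-like, 5380 and 4270 in inflammatory fibroblast-like cells and 5760 and 5880 in cluster 16. Vcan was held most by adventitial Col14a1 fibroblast-like cells in the naive library (42.9% of UMIs at 114), where 114 to 205 was measured in all 5 libraries. Pericyte-like cells had 0 to 11.1 of Vcan.

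Sparc had a UMI in 91.2% to 93.8% of cells of each library. Among the named classes, which leave out clusters 2 and 10, the lowest level was in blood endothelial-like cells, at 249 to 460 CPM. Profibrotic fibroblast-like cells held 5660, 8140, 10900 and 10400 in the libraries labelled Fas+/+ 3 weeks, Fas-/- 3 weeks, Fas+/+ 6 weeks and Fas-/- 6 weeks. Alveolar epithelial-like cells held 5980, 5990 and 6590 in the libraries labelled Fas+/+ 3 weeks, Fas+/+ 6 weeks and Fas-/- 6 weeks, above the profibrotic fibroblast-like cells in the first of these.

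**Figure D4:**
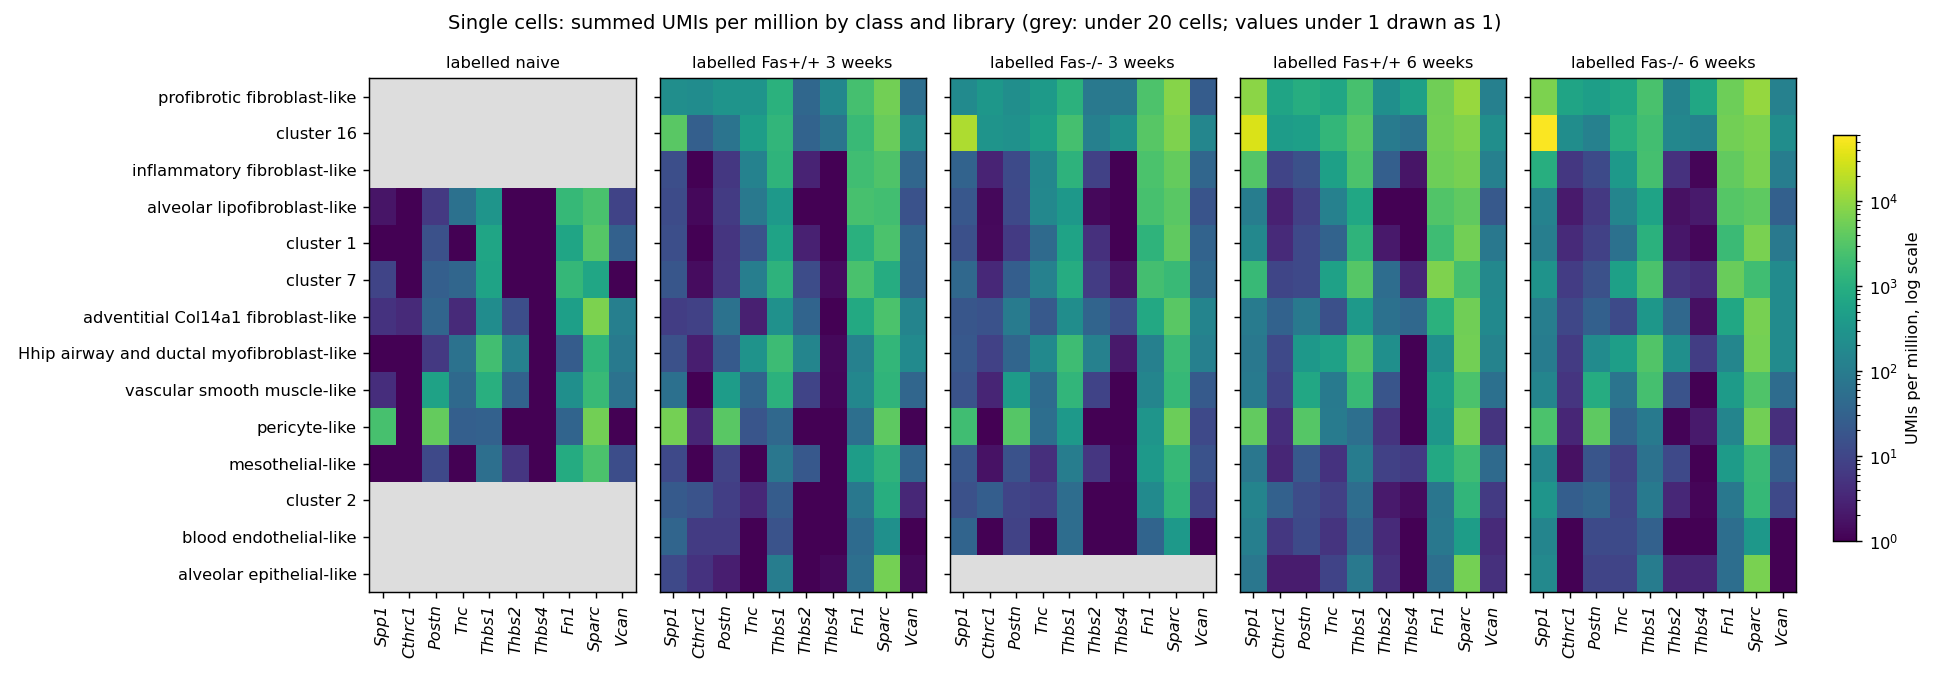
Summed UMIs, scaled as CPM (color, log scale) of the 10 genes in 14 classes of single cells in each of the 5 libraries as labelled, with grey where a class held under 20 cells and values under 1 drawn as 1. After bleomycin Cthrc1 is brightest in profibrotic fibroblast-like cells in the 4 libraries and Thbs4 in all but that labelled Fas-/- 3 weeks, Postn is brightest in pericyte-like cells, and Spp1 is brightest in cluster 16 or pericyte-like cells.

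Members were also compared within single cells, after thinning to 3000 UMIs. In the library labelled Fas-/- 6 weeks 125 of 2171 cells had a Cthrc1 UMI. Of these 70.4% also had a UMI of Tnc, 65.6% of Spp1 and 33.6% of Thbs4, against 26.8%, 42.3% and 3.64% of all cells. For Vcan the shares were 21.6% and 18.1%. In the library labelled Fas+/+ 6 weeks 204 of 2517 cells had a Cthrc1 UMI, and 35.8% of these had Tnc, 40.2% Spp1 and 10.3% Thbs4, against 17.5%, 36.3% and 1.87% of all cells. These are shares of cells of 1 library each, and cells are not replicates.

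Between the genotypes single cells allow only values side by side. Over whole libraries Cthrc1 was at 14.6 CPM in the library labelled Fas+/+ 3 weeks and 40.9 in that labelled Fas-/- 3 weeks, and at 118 and 111 in those labelled 6 weeks. Spp1 was at 286 and 438, and at 3870 and 7820. Tnc was at 71.8 and 123, and at 306 and 340. The naive library had 0.712 CPM of Cthrc1, 169 of Spp1 and 39.7 of Tnc, lower than any library after bleomycin. Whole-library levels also depend on the mix of cells, which differed. Cluster 2, in which blood endothelial markers were raised, held 22.7% of cells in the library labelled Fas+/+ 6 weeks. It held 5.23% in that labelled Fas-/- 6 weeks, and 5.52% and 5.06% in those labelled Fas+/+ and Fas-/- 3 weeks. The part of this mix in the levels was not tested.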

How the data were processed

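Bulk RNA was sequenced from 20 libraries of sorted Lin- mouse lung cells and single cells from 5 libraries. Per the study's methods and the submitters' processing notes, the deposited bulk values are raw counts per Ensembl gene, made by the authors with HTSeq after skewer trimming and HISAT2 alignment (GRCm38). The deposited single-cell values are UMI counts from Cell Ranger. The deposited table of normalized values was not used.

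Bulk counts were tested with edgeR (version 4.0.16, quasi-likelihood F test, TMM) on all 5 groups, after a filter on low counts (minimum count 10, filterByExpr) that kept 15773 genes, with Benjamini-Hochberg adjustment over all of them and calls at an adjusted p of 0.05 or less. The test was checked on simulated data for the comparison of genotypes at 6 weeks. It recovered 86.3% of log2 changes of size 2 and 66.7% of those of size 1, and 3.59% of its calls were false. The changed genes were drawn at random from the tested genes, so these rates are averages and need not hold for a variable member. Cthrc1, for example, was not called at a log2 fold change of 1.80 ± 0.594 in this comparison. Smaller changes were not simulated. Simulated counts were drawn independently for each library, so shifts of many genes within a library, as in the endothelial-high libraries, were not covered. Each simulation changed 200 genes, whereas 8 were called in the data, and the rate of recovery depends on that number. A member that was not called between genotypes is therefore not shown to be unchanged. Bulk CPM values use the TMM-scaled library sizes. Total counts had a median of 20122870. Intervals cover counting error only.

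Of 13900 barcodes, 12059 had 200 to 7500 genes with a mitochondrial share of 20% or less. These were clustered with Seurat (version 5.3.0, 3000 features, 20 components, resolution 0.8), leaving out 80 listed genes, the members among them. No doublet caller was run beyond the upper limit on genes and the sort. Thinning to 3000 UMIs left out 2846 cells. Cells are not replicates, so no test was made.

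From each other list up to 4 called genes with the smallest adjusted p were named per comparison, and for each member the 3 most correlated genes. A result for 1 listed gene is not reported here. The members and lists were chosen with earlier results of these data known. Samples were grouped by their labels. Alternatives were DESeq2 (version 1.42.0), RLE scaling, other filters, only the groups compared, a replicate block, an endothelial covariate and leaving out libraries.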

Additional observations from a re-analysis of the deposited data

Results flagged for a closer look

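In 12 of 50 groups of 4 libraries 1 library lay far from the other 3 in log2 CPM. For a single group chance gives this about 1 time in 20. The 50 groups are the 10 members in the same libraries, and many members vary together, so the flags are not independent and the 12 cannot be set against that rate. Fas+/+ replicate 1 of 3 weeks was low for Cthrc1 (5.84 CPM), Tnc (186), Thbs2 (50), Thbs4 (32.8), Fn1 (5390), Sparc (2310) and Vcan (70.8). Fas-/- replicate 4 of 3 weeks was low for Spp1 (273) and Postn (242). These are the 2 libraries with the highest endothelial markers, and the part of those cells in the low levels was not tested. Thbs4 was high in Fas+/+ replicate 4 of 6 weeks (64.0), Fn1 was high in naive replicate 4 (6720) and Vcan was low in naive replicate 1 (98.4). The high Thbs4 level of naive replicate 4 (38.3) was not flagged on this scale.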

How the results depend on the processing

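With DESeq2, RLE scaling, a minimum count of 50, no filter and the replicate block, all 9 counts of members called stayed within 1.5 times. Same-numbered libraries did not deviate together (mean correlation -0.0309), so the replicate block pairs nothing known. It turned the direction of Vcan between genotypes at 3 weeks (0.018) and of the Thbs1 interaction (-0.053), neither called. With only the groups compared, the endothelial covariate and without the 2 endothelial-high libraries (chosen after seeing the data), members called were 3, 2 and 3 at 6 weeks over naive in Fas+/+, 5, 5 and 6 in Fas-/-, and 4, 4 and 7 between weeks in Fas-/- mice. Without those 2 libraries 2 members were called between genotypes at 6 weeks and 2 in the interaction. Those libraries were the lowest of their 3 week groups for every member. Leaving them out had to raise the 3 week means, so these counts are no separate evidence. Directions of uncalled log2 fold changes turned with the covariate for Postn at 3 weeks (0.60 in Fas+/+, 0.15 in Fas-/-), Postn (0.10) and Vcan (0.091) at 6 weeks in Fas+/+, and Thbs1 (-0.048) and Thbs4 (-0.036) between genotypes at 3 weeks. Without the 2 libraries they turned for Postn (0.11 and 0.016) and Thbs1 (-0.083). The cause was not tested.

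Leaving out 1 library at a time, members called ranged from 4 to 9 (6 against 3 weeks, Fas+/+), 1 to 5 (the same, Fas-/-), 0 to 2 (6 weeks over naive, Fas+/+), 1 to 4 (the same, Fas-/-) and 0 to 1 (interaction). Log2 fold changes that crossed 0 between genotypes at 3 weeks ranged from -0.44 to 0.082 (Fn1), -0.35 to 0.10 (Postn), -0.27 to 0.11 (Sparc), -0.44 to 0.32 (Spp1), -0.19 to 0.37 (Thbs1), -0.15 to 0.41 (Thbs4) and -0.31 to 0.21 (Vcan). At 6 weeks they ranged from -0.15 to 0.083 (Postn) and -0.19 to 0.074 (Spp1). In the interaction they ranged from -0.14 to 0.31 (Postn), -0.35 to 0.41 (Spp1), -0.19 to 0.37 (Thbs1) and -0.45 to 0.074 (Vcan). Over naive they ranged from -0.21 to 0.11 and -0.40 to 0.012 (Postn, 3 weeks, Fas+/+ and Fas-/-), -0.025 to 0.29 (Sparc, 6 weeks, Fas-/-), -0.0065 to 0.23 (Thbs1, 6 weeks, Fas+/+) and -0.25 to 0.22 (Thbs2, 6 weeks, Fas+/+). For Postn between weeks in Fas-/- mice the range was -0.31 to 0.10. Depth limited Cthrc1 in naive libraries, at under 1 CPM. Single-cell levels that moved beyond their counting interval numbered 107 of 520 at a clustering resolution of 0.4, 74 of 520 at 1.2, 43 of 50 after thinning, 23 of 50 with all barcodes and 14 of 570 without copies of shared barcodes.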
